A study of Medicago ruthenica with 9 samples.

Results

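Leaves of drought-stressed and of well-watered Medicago ruthenica, a wild forage legume, were compared for their miRNAs. The 6 libraries labelled drought stress (DS, 3 libraries) and control (CK, 3 libraries) were taken by their labels from the 9 libraries of the study. The remaining 3 libraries (RW, leaves of plants rewatered after the drought) entered the estimate of the spread and the choice of the names to test. All plants came from 1 seed source, grew 8 to a pot in vermiculite and quartz sand without added nutrients, and were 4 weeks old when treatment began. CK plants were watered every 3 days to keep relative soil moisture above 80%, and DS plants received no water for 15 days, when relative soil moisture had come down to 20%. Leaves of both groups were frozen on the same day. The labels call the 3 libraries of a group biological replicates, and the sources used here do not say how many plants went into a library.

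miRNAs are short RNAs that an Argonaute protein carries to complementary mRNAs, which are then cut or not translated. A hairpin precursor gives a duplex of a 5p and a 3p strand, of which mostly 1 strand, the guide, is kept, and the other, the star strand, is degraded. The families miR398, miR397, miR408, miR857 and, in legumes, miR2119 are known as copper-responsive: when copper is short, they rise and silence mRNAs of dispensable copper proteins such as copper/zinc superoxide dismutase, laccases and plantacyanin. Members of the same families have been described as drought-responsive in several plants, with a direction that differs between species. miR399, miR827 and miR2111 rise in phosphate shortage, and miR1510, miR482 and miR2118 silence mRNAs of NBS-LRR disease resistance proteins.

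The sequences that the comparison turned on are given first, as the deposited table lists them, 5′ to 3′ and in DNA letters, with the seed (bases 2 to 8) in capitals. The first set holds the copper-responsive miRNAs, shown because related sequences of 1 family differed in how far they moved. The name tells the miRBase entry matched, with L and R for bases added or missing at the ends and ss for substitutions. MIR with p3 or p5 marks a predicted arm of the hairpin.
mtr-miR398a-3p_L+1R-1: tTGTGTTCtcaggtcacccct
mtr-miR398a-5p: gGAGTGACactgagaacacaag
mtr-miR398b: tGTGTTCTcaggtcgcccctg
mtr-miR2119: tCAAAGGGaggtgtggagtag
gma-miR408a-3p_L-1R+2: tGCACTGCctcttccctggctc
mtr-miR408-3p: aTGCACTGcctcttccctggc
The sequence of mtr-miR398a-5p is the reverse complement of mtr-miR398a-3p_L+1R-1 over a run of 12 bases, as the strands of a duplex would be. gma-miR408a-3p_L-1R+2 shares a run of 20 bases with mtr-miR408-3p but starts 1 base later, so that their seeds differ.

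The second set holds 2 other miRNAs that fell, each together with the relative it is compared with.
mtr-MIR1510b-p5_1ss22CT: tCCCTACCatgtggactccatt
mtr-miR1510b-3p_1ss8CA: aCATGGTAggtatccctggaa
mtr-miR5284a_1ss9AT: gAGGGACCtaaagtggaagaatct
mtr-miR5284a_1ss11AT: gAGGGACCaatagtggaagaatct
The strands of miR1510b are complementary over a run of 10 bases. The 2 forms of miR5284a share their seed and their last 13 bases.

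The third set holds the miRNAs that rose.
mtr-miR2111l: aTCCTTGGaatgcagattatc
mtr-miR2111a-5p: tAATCTGCatcctgaggttta
miR3630-3p (han and vvi names): gTCTGTGGgaatctctctgatgca
mtr-MIR2592bj-p3_2ss12TC19AT: aTTCCCACtgtccctgtct
gma-MIR5368-p5_1ss1TC: cCCTGGGAttggctttgg
peu-MIR2916-p3_2ss5AG20TG: gGGGGCTCgaagacgatcagatacc
gma-miR6300_R+5: gTCGTTGTagtatagtggtaagt
mtr-miR2111a-5p was not among the risers and is shown because mtr-miR2111l is its reverse complement over a run of 10 bases. The 18 miRNA names that passed the test held 17 different sequences, since 2 names of miR3630-3p carry the same sequence, and no seed was shared between different sequences that passed.

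The values are normalized read counts. In each library 98.6% or more of the low values lie on whole steps of 1 size, 0.252 to 0.310 in CK and 0.788 to 0.893 in DS. The sum of the values divided by the step gives the approximate number of reads in the table. It was about 3992620 to 5761720 for CK and about 1580930 to 1769190 for DS, so the DS libraries held fewer reads of the listed names. In the paper's read counts, CK and DS differed less before filtering than after it. The smallest listed value was 0.652 to 1.55 in CK and 3.94 to 4.21 in DS, and everything lower is listed as 0. A 0 in DS therefore says only that a value was under about 4.21, and no fold change is given for a single miRNA listed at 0 in DS. Medians over groups of names do include such miRNAs. The table lists 423 to 489 of its 595 names above 0 in the CK libraries and 283 to 305 in the DS libraries. Above 4.21, the highest of the smallest listed values, the counts were 317 to 343 in CK and 282 to 290 in DS. Both differences had an exact permutation p of 0.1 (2-sided), the smallest that 3 against 3 libraries allow. As the tissue was sequenced in bulk, fewer cells of a type and less of a miRNA per cell cannot be told apart.

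Among the names that passed as lower in DS were miR398a, miR2119 and a form of miR408, all copper-responsive, and a miR1510b strand. Those that passed as higher included miR2111l and several short RNAs taken to resemble rRNA or tRNA pieces. Not all of these calls were stable. With 1 library left out, the miR408 form and miR2111l each kept the call in only 2 of 9 fits. Both calls were also lost in a fit of only CK and DS. The main miR408 form, mtr-miR408-3p, overlapped between the groups and did not pass (limma adjusted p = 0.48). Of the 339 names tested, those that reached 5 in 3 or more of the 9 libraries, 7 (2.06%) were upregulated and 11 (3.24%) were downregulated in DS vs. CK (limma on log2(value + 1), Benjamini-Hochberg adjusted p under 0.05), together 5.31%. At an unadjusted p under 0.05 there were 28 higher (8.26%) and 38 lower (11.2%). All 3 DS libraries were above all 3 CK libraries for 33 names (9.73%) and below them for 62 names (18.3%). The median difference over all tested names was -0.36 on the log2 scale, and 0.01 over the 199 names listed above 0 in all 6 libraries. The 202 tested names above 0 in all DS libraries had 7 upregulated and 2 downregulated names, and the 137 names with a 0 in at least 1 DS library had 0 and 9.

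Leaving out a CK library removed more calls than leaving out a DS library. Without CK library 1, limma called 0 names (45 at an unadjusted p under 0.05), without CK library 2 it called 2, and without CK library 3 it called 5. Without DS library 1, 2 or 3 it called 23, 15 and 15, and without RW library 1, 2 or 3 it called 11, 21 and 13. Every called name that was still tested kept its direction in each of these fits. In a fit of only CK and DS, 285 names were tested and 11 names were called. mtr-MIR2610a-p3_1ss9AC was not tested there, as it reached the filter only with the RW libraries.

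**Figure D1:**
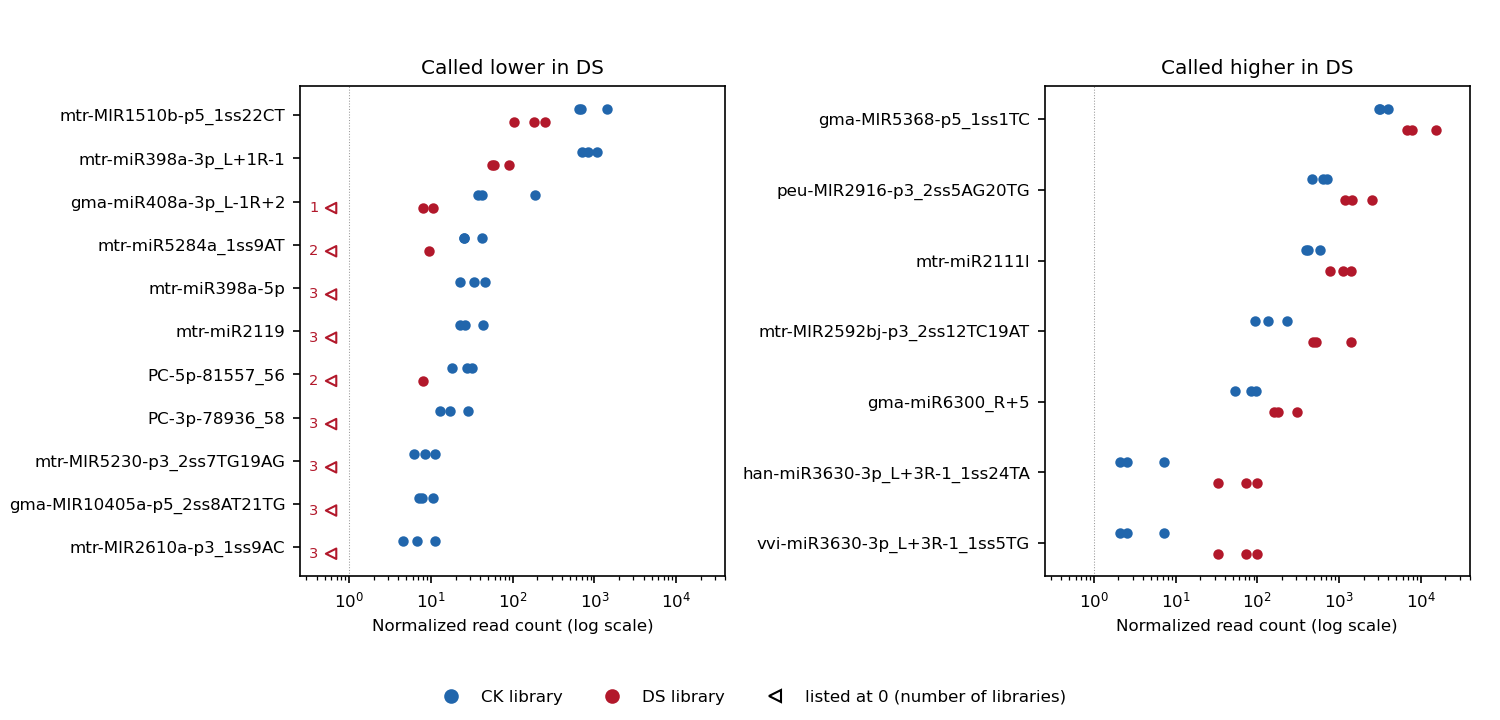
Normalized read count (log axis) of the 11 miRNAs called lower and the 7 called higher in DS, with 1 point per library (CK blue, DS red) and open triangles with the number of libraries listed at 0. In every row the CK and DS points do not overlap, and 6 of the lower rows have all 3 DS libraries at 0.

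**Figure D2:**
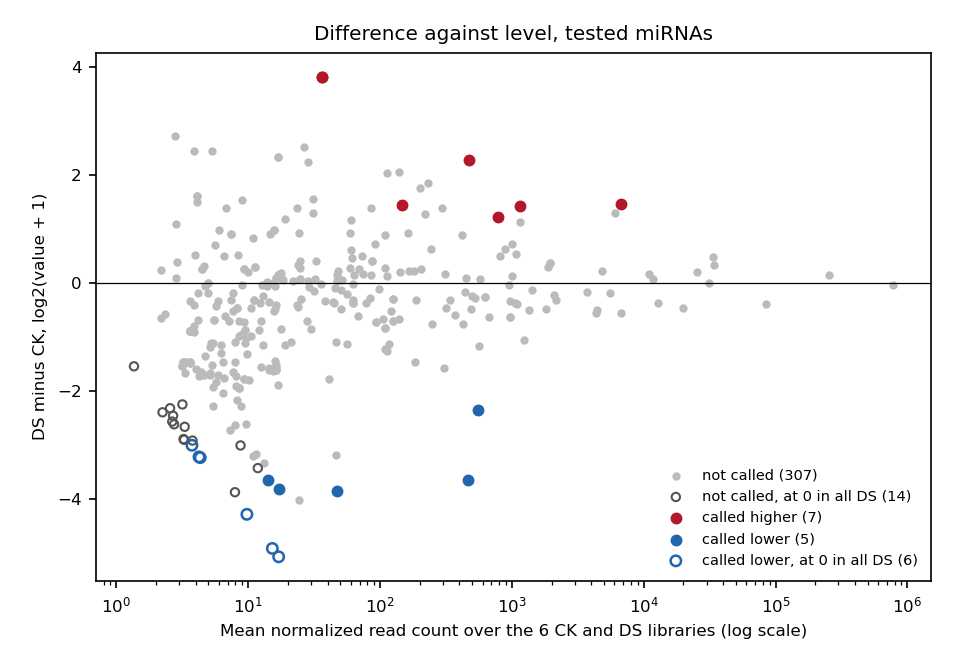
Difference of DS and CK on the log2(value + 1) scale against the mean normalized read count of the 6 libraries (log axis), 1 point per tested miRNA, with open circles for the 20 names listed at 0 in all DS libraries. The highest call lies at 3.82, and the names at 0 in all DS libraries have means under 20.

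The copper-responsive list had the lowest median of the 12 lists. It holds 16 names, of which 8 were tested; 4 were downregulated, 0 upregulated, and all 8 had a fitted difference below 0. Their median was -3.42, beside -0.36 over all tested names, and 7 of the 8 had all DS libraries below all CK libraries, beside 18.3% of all tested names. Only 3 of the 8 were listed above 0 in all 6 libraries, with a median of -1.46. The 4 calls were not all of separate members. mtr-miR398a-3p_L+1R-1 and mtr-miR398a-5p are strands of 1 hairpin, and miR2119 is known from other legumes to share their transcript. The list was also chosen with earlier results of these data known, so the background beside it is only descriptive. The number called ranged from 0 to 4 with each library left out, 0 without CK library 1 or CK library 2 and 1 without CK library 3, and the median from -3.98 to -2.63.

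mtr-miR398a-3p_L+1R-1 carries the guide strand of miR398a, which silences copper/zinc superoxide dismutases. It stood at 1071, 841 and 696 in the CK libraries and at 58.3, 55.6 and 91.0 in the DS libraries. The groups lay far apart, and the highest DS value was well under the lowest CK value. The means were 869 ± 189 and 68.3 ± 19.7 (SD, n = 3), 12.7 times lower in DS, with a log2 difference of -3.66 (SE 0.61, limma adjusted p = 0.0080). The adjusted p was 0.058 without CK library 1 and 0.056 without CK library 2, and under 0.05 without any other library.

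The star strand mtr-miR398a-5p stood at 23.0, 33.5 and 45.8 in CK and was listed at 0 in all 3 DS libraries (limma adjusted p = 0.014). mtr-miR2119 stood at 42.8, 26.03 and 22.6 in CK and was also listed at 0 in all 3 DS libraries (limma adjusted p = 0.0076). miR2119 is known in common bean and barrel medic to be cut from the same transcript as miR398a and to silence alcohol dehydrogenase. Each CK value of both miRNAs was above 4.21 by a factor of more than 5, so these zeros lie far under the CK level. With low values raised to 4.21 in every library, the adjusted p was 0.0023 for miR398a-5p and 0.0021 for miR2119. The call of miR398a-5p was lost without CK library 1, 2 or 3 (limma adjusted p 0.079, 0.092 and 0.079), and miR2119 passed wherever it was tested, but leaving out a CK library takes it under the filter.

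mtr-miR398b carries a sequence close to that of miR398a-3p and silences the same family of mRNAs. Its values were 152, 287 and 357 in CK and 139, 37.1 and 141 in DS. All DS values were lower than all CK values, though DS libraries 1 and 3 lay close to CK library 1. The log2 difference of -1.46 (SE 0.80) did not pass (limma adjusted p = 0.31). Within a library, the count of mtr-miR398a-3p_L+1R-1 per 100 of mtr-miR398b was 703, 293 and 195 in CK and 42.0, 150 and 64.6 in DS. This ratio does not depend on how a library was scaled, and the groups did not overlap (exact permutation p = 0.1, the smallest possible).

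miR408 silences plantacyanin and laccase mRNAs. Its main form mtr-miR408-3p stood at 3745, 4392 and 7109 in CK and at 1968, 3860 and 4784 in DS. The groups overlapped, and the log2 difference of -0.56 (SE 0.43) did not pass (limma adjusted p = 0.48). The form gma-miR408a-3p_L-1R+2, which starts 1 base later, stood at 42.3, 37.8 and 187 in CK and at 7.88, 0 and 10.7 in DS. It was downregulated (limma adjusted p = 0.046), a call that was lost without CK library 1, 2 or 3 (adjusted p 0.13, 0.093 and 0.19), without DS library 2 (0.074), without RW library 1, 2 or 3 (0.062, 0.054 and 0.074), with a pseudocount of 0.5 (0.063), without the fragment-like names (0.069) and in the fit of only CK and DS (0.10). Per 100 of mtr-miR408-3p it stood at 1.13, 0.861 and 2.63 in CK and at 0.401, 0 and 0.224 in DS, without overlap (exact permutation p = 0.1).

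bra-MIR408-p5 stood at 3.65, 3.72 and 8.55 in CK and was listed at 0 in all DS libraries, where 2 of its CK values are under 4.21 (limma adjusted p = 0.069). Its sequence is the reverse complement of mtr-miR408-3p over a run of 20 bases. The names of miR397, which silences laccases, stood at no more than 4.70 in CK and were listed at 0 in all DS libraries; they were not tested, and their CK values lie near or under the smallest values that the DS libraries list. As a share of all values, the copper-responsive list held 0.467 ± 0.129% (CK) and 0.265 ± 0.093% (DS; SD, n = 3), with overlapping groups (exact permutation p = 0.2). Most of this share was mtr-miR408-3p.

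**Figure D3:**
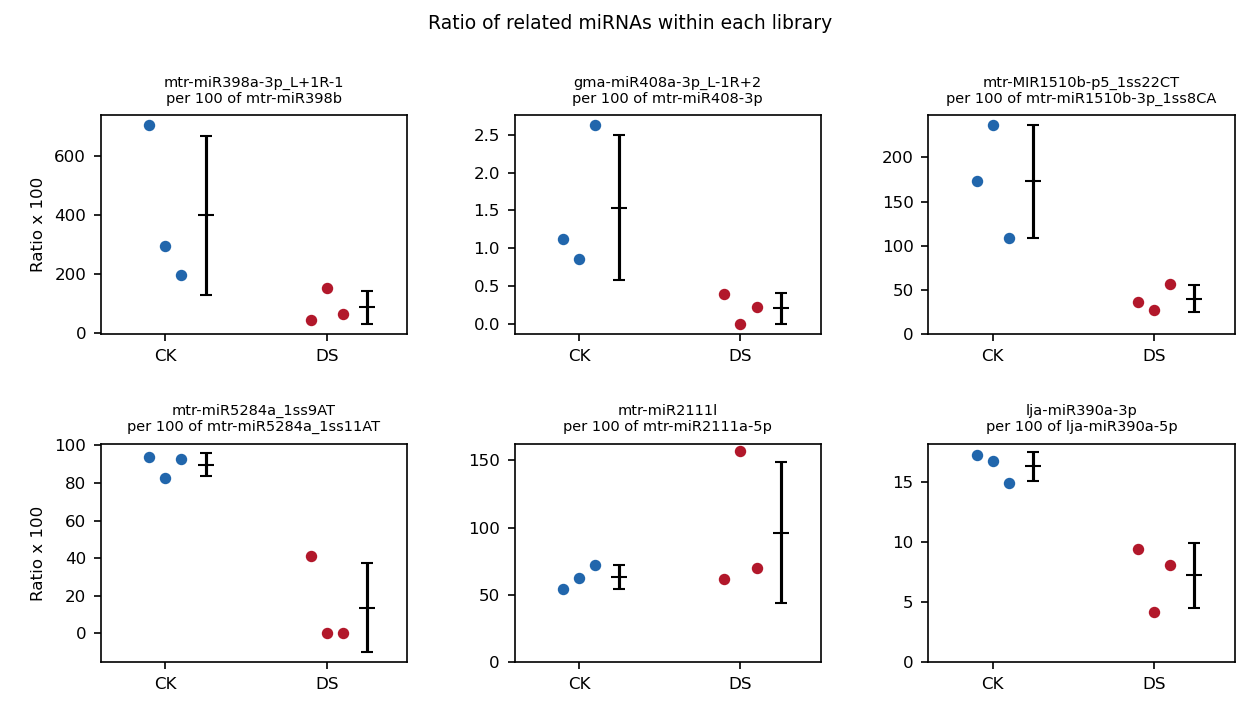
Count of 1 miRNA per 100 of a related one within each library, for 6 pairs, with 1 point per library, the mean (dash) and SD (bar); the ratio for miR5284a_1ss9AT has DS libraries 2 and 3 at 0. CK and DS do not overlap in 5 pairs and overlap for mtr-miR2111l per 100 of mtr-miR2111a-5p.

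Among the NBS-LRR-targeting families, 14 of 24 names were tested, with 1 downregulated and 0 upregulated and a median of -0.32, close to the -0.36 of all tested names. The downregulated name was mtr-MIR1510b-p5_1ss22CT, a predicted 5p strand of miR1510b that is in the list by its family number and whose targets were not examined. It stood at 684, 1434 and 645 in CK and at 249, 103 and 184 in DS, so that no DS library reached the lowest CK library. The means were 921 ± 445 and 179 ± 73.3 (SD, n = 3), with a log2 difference of -2.35 (SE 0.44, limma adjusted p = 0.014). The adjusted p was 0.058 without CK library 1 and 0.092 without CK library 2.

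The 3p strand mtr-miR1510b-3p_1ss8CA stood at 394.99, 605 and 594 in CK and at 681, 384 and 323 in DS, overlapping, with a log2 difference of -0.25 (SE 0.35, limma adjusted p = 0.69). Per 100 of this 3p strand, the 5p strand stood at 173, 237 and 108 in CK and at 36.6, 26.8 and 56.9 in DS, without overlap (exact permutation p = 0.1). The related mtr-MIR1510a-p5_1ss21AT, which was far more abundant, stood at 14811, 8343 and 11324 in CK and at 14854, 11836 and 9266 in DS. The abundant members nta-miR482a (41798, 25281 and 26537 in CK, 27892, 41197 and 24387 in DS) and mtr-miR2118 (42588, 30861 and 17570 in CK, 26644, 57559 and 30596 in DS) overlapped as well, as did mtr-miR482-3p_L-1R+2 (31326, 19491 and 20661 in CK, 33504, 24307 and 23218 in DS).

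mtr-miR5284a_1ss9AT stood at 41.7, 25.4 and 25.7 in CK and at 9.46, 0 and 0 in DS (limma adjusted p = 0.028). The form mtr-miR5284a_1ss11AT with the same seed stood at 44.6, 30.7 and 27.7 in CK and at 22.9, 28.6 and 12.5 in DS, overlapping (log2 difference -0.71, SE 0.48, limma adjusted p = 0.44). Per 100 of the second form, the first stood at 93.6, 82.8 and 92.7 in CK and at 41.4, 0 and 0 in DS, so that nearly equal levels in CK became unequal in DS (exact permutation p = 0.1). Over the 6 pairs compared, the adjusted p of the 5 ratios without overlap was 0.12. The pairs were chosen after their values had been seen, so the lack of overlap is not an independent result.

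The other downregulated names have low values. PC-3p-78936_58, where PC marks a candidate miRNA with no miRBase match, stood at 13.0, 28.5 and 17.1 in CK and at 0 in all DS libraries (limma adjusted p = 0.014). It passed wherever it was tested, but leaving out a CK library takes it under the filter, so that it was tested only through its CK values. PC-5p-81557_56 stood at 31.8, 17.98 and 27.7 in CK and at 7.88, 0 and 0 in DS (limma adjusted p = 0.028). The last 3, mtr-MIR5230-p3_2ss7TG19AG (6.26, 11.2 and 8.55 in CK), gma-MIR10405a-p5_2ss8AT21TG (7.83, 10.5 and 7.04) and mtr-MIR2610a-p3_1ss9AC (6.78, 11.2 and 4.53), were at 0 in all DS libraries, and their CK values lay between 1 and 3 times the 4.21 that DS could list. With low values raised to 4.21 in every library, these 3 no longer passed (limma adjusted p 0.25, 0.30 and 0.42), and their calls were also lost without each CK library (0.064 to 0.15) and, for mtr-MIR2610a-p3_1ss9AC, without RW library 1 (0.053), with a pseudocount of 5 (0.079) and without a filter (0.059). The calls of mtr-miR5284a_1ss9AT and PC-5p-81557_56 were lost in the fit of only CK and DS (adjusted p 0.078 for each) and without each CK library, DS library 2 or 3, and RW library 1 or 3 (adjusted p 0.057 to 0.14). Of the 35 names listed in all CK and in no DS library, 9 had all CK values above 4.21.

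Among the phosphate-responsive families, 9 of 12 names were tested, with 1 upregulated and 0 downregulated and a median of 0.73. The median came from miR2111, of which 6 of 7 tested names had a fitted difference above 0, beside 34.8% of all tested names. All 7 were listed in all 6 libraries. Among the 202 tested names above 0 in all DS libraries, 103 had a fitted difference above 0. miR2111-5p is known in Lotus japonicus to travel from shoot to root, where it silences the nodulation inhibitor TML. mtr-miR2111l, whose sequence is complementary to that strand, stood at 398.6, 577 and 420 in CK and at 1126, 1392 and 776 in DS. All DS libraries were higher, with means of 465 ± 97.6 and 1098 ± 309 (SD, n = 3), 2.36 times higher in DS (log2 difference 1.22, SE 0.31, limma adjusted p = 0.044). This call was close to the threshold: it was lost without CK library 1, 2 or 3 (adjusted p 0.17, 0.092 and 0.14), DS library 1 or 2 (0.093 and 0.12) and RW library 1 or 3 (0.062 and 0.065), with each library scaled to the same total (0.054), without the fragment-like names (0.068) and in the fit of only CK and DS (0.067).

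The 5p strand mtr-miR2111a-5p stood at 730, 919 and 579 in CK and at 1816, 887 and 1105 in DS. DS library 2 lay under CK library 2, and the log2 difference of 0.73 (SE 0.32) did not pass (limma adjusted p = 0.24). mtr-MIR2111n-p3, complementary to the 5p strand over 9 bases, stood at 67.3, 58.9 and 22.6 in CK and at 131, 121 and 109 in DS, without overlap (log2 difference 1.40, SE 0.57, limma adjusted p = 0.21). Another 5p form, vvi-miR2111-5p, stood at 704, 575 and 351 in CK and at 953, 406 and 423 in DS. The families of the list did not move alike: mtr-miR399q, of the family that silences the phosphate regulator PHO2, stood at 43.8, 0 and 27.2 in CK and at 0 in all DS libraries, and mtr-miR399l at 16.7, 4.34 and 17.4 in CK and at 0, 5.06 and 0 in DS (limma adjusted p 0.21 and 0.24).

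The remaining upregulated names were nearly all of the fragment-like list. It holds families whose miRBase entries are taken to resemble pieces of rRNA or tRNA, and it stands here for RNA quality. The sequences were not aligned to rRNA or tRNA. The authors' processing removed reads of rRNA and tRNA families, so these names are what was left. All 15 names were tested, with 5 upregulated and 0 downregulated and a median of 1.45. Of these, 11 had all DS libraries above all CK libraries, beside 9.73% of all tested names (33 of the 202 above 0 in all DS). With names of 1 sequence merged, 4 of 14 were upregulated. The list summed to 0.491, 0.606 and 0.646% of the values in the CK libraries and to 1.29, 1.13 and 2.40% in the DS libraries. DS library 3 was highest, and the groups did not overlap (exact permutation p = 0.1). The number called ranged from 0 to 6 with each library left out, 0 without CK library 1, 2 without CK library 2 or 3 and 3 without DS library 2 or 3. Without RW library 1 it was 3, and in the fit of only CK and DS it was 2.

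gma-MIR5368-p5_1ss1TC, of 18 bases, was the most abundant name that passed. It stood at 3122, 3129 and 4011 in CK and at 7902, 6840 and 15380 in DS, 2.94 times higher by the means (log2 difference 1.47, SE 0.30, limma adjusted p = 0.016). peu-MIR2916-p3_2ss5AG20TG stood at 467, 639 and 714 in CK and at 1167, 1426 and 2515 in DS (log2 difference 1.43, SE 0.33, limma adjusted p = 0.028). Both had DS library 3 clearly above the other DS libraries. Without DS library 3 the adjusted p was 0.080 for the miR2916 name, and the miR5368 name stayed under 0.05; both calls were lost without each CK library (adjusted p 0.058 to 0.14) and in the fit of only CK and DS (0.053 for gma-MIR5368-p5_1ss1TC and 0.064 for peu-MIR2916-p3_2ss5AG20TG). The partner arm gma-MIR5368-p3_2ss1AT18CA stood at 3429, 3081 and 3669 in CK and at 6354, 7059 and 12992 in DS, without overlap (limma adjusted p = 0.058). The miR2916 call was also lost without DS library 2 (0.055) or RW library 1 (0.057).

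The sequence of miR3630-3p stood at 2.09, 7.13 and 2.52 in CK and at 33.1, 72.5 and 99.1 in DS, 17.4 times higher by the means (log2 difference 3.82, SE 0.61, limma adjusted p = 0.0076). It kept its call without any library but CK library 1 (adjusted p = 0.058). gma-miR6300_R+5 stood at 96.5, 84.3 and 52.8 in CK and at 162.4, 310 and 180 in DS (log2 difference 1.45, SE 0.35, limma adjusted p = 0.037), and its call was lost without each CK library (0.079 to 0.14), DS library 2 or 3 (0.093 and 0.062), RW library 1 or 3 (0.062 and 0.065) and in the fit of only CK and DS (0.088). The 4 names of miR8175 all end in CCA, the triplet that mature tRNAs carry at the 3′ end. Of these, ath-miR8175_L+4 stood at 55.3, 90.5 and 135 in CK and at 168.7, 315 and 623 in DS (log2 difference 1.86, SE 0.49, limma adjusted p = 0.0503).

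mtr-MIR2592bj-p3_2ss12TC19AT, of 19 bases and outside that list, stood at 93.4, 135 and 229 in CK and at 519, 479 and 1385 in DS, 5.21 times higher by the means (log2 difference 2.29, SE 0.45, limma adjusted p = 0.014). Its call was lost without CK library 1 or 2 (0.079 and 0.092) and in the fit of only CK and DS (0.053). Short names mostly had fitted differences above 0. Of 16 tested names of 18 bases, 14 had a fitted difference above 0 (34.8% of all tested names did) and 9 had all DS libraries above all CK libraries (9.73% of all tested names did), with a median of 1.54 and 1 call. For the 13 of them outside the fragment-like list the numbers were 11 and 6, with a median of 1.30 and 0 calls (5 at an unadjusted p under 0.05, limma). Of the 16 names of 18 bases, 10 were listed in all 6 libraries. Among the 202 tested names above 0 in all DS libraries, 103 had a fitted difference above 0. Of those 202, 33 had all DS libraries above all CK libraries. Names of 18 and 19 bases together held 0.234, 0.293 and 0.339% of the values in CK and 0.712, 0.528 and 1.31% in DS (exact permutation p = 0.1). Most of this share is gma-MIR5368-p5_1ss1TC, which is in the fragment-like list too, so the shares of both classes are not independent. The 33 names of 18 and 19 bases outside that list held 0.0251, 0.0349 and 0.0506% in CK and 0.0829, 0.0588 and 0.186% in DS, also without overlap (exact permutation p = 0.1) and highest in DS library 3. The part of RNA quality in these shares was not tested.

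**Figure D4:**
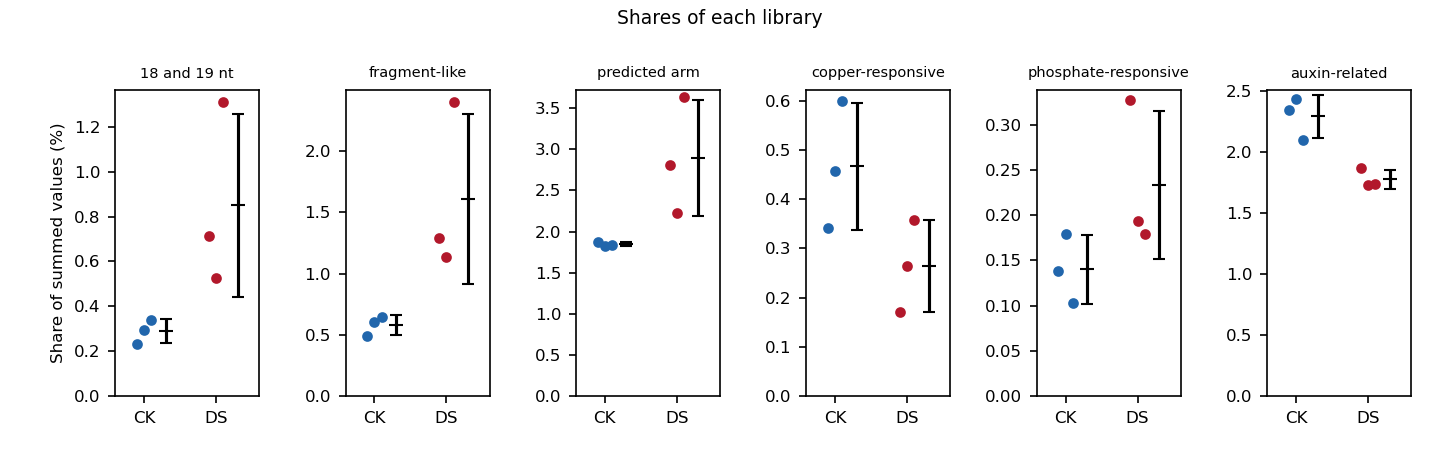
Share of the summed values (%) held by 6 classes of miRNAs, with 1 point per library, the mean (dash) and SD (bar), each axis starting at 0. The 18 and 19 nt, fragment-like and predicted-arm classes are higher in every DS library. The abundant gma-MIR5368-p5_1ss1TC is in each of these classes, so their rises are not independent. The auxin-related class is lower in every DS library, and the copper- and phosphate-responsive classes overlap.

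The most abundant miRNAs did not pass. mtr-miR166a targets mRNAs of the HD-ZIP III factors of leaf polarity. It held 56.6 ± 5.68% of the values of CK and 54.9 ± 6.05% of those of DS (SD, n = 3). It had a log2 difference of -0.04 and a 95% interval from -0.65 to 0.57. mtr-miR159a, of the family that silences GAMYB factors, stood at 196058 to 267912 in CK and at 201372 to 353231 in DS. mtr-miR396a-5p, which silences growth-regulating factors, stood at 89889, 97046 and 99349 in CK and at 66311, 69700 and 82292 in DS. All its DS values were lower, and the log2 difference of -0.40 (SE 0.21) did not pass (limma adjusted p = 0.30). mtr-miR396b-5p, which has the same seed, differed in the other direction, at 19505, 40443 and 23510 in CK and at 24628, 38968 and 52767 in DS, with overlap (log2 difference 0.48, SE 0.37, limma adjusted p = 0.48). mtr-miR164a, which silences NAC factors, stood at 22764, 17673 and 28902 in CK and at 13720, 14832 and 22094 in DS, also overlapping.

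The list of families that target transcription factors of development was made by family number. It also holds non-guide strands, and targets were not examined. Of its 62 tested names, 0 were called by limma, with 6 higher and 6 lower at an unadjusted p under 0.05 and a median of -0.18. Over all tested names these shares were 8.26% and 11.2%, so the list stood near the background. The 6 higher ones included names of the non-guide strand of miR156, whose guide silences SPL factors. mtr-miR156c-3p stood at 713, 666 and 688 in CK and at 1078, 1244 and 2524 in DS, and mtr-MIR156e-p3 at 95.0, 105 and 66.9 in CK and at 248, 234 and 466 in DS. Both were above all CK libraries in each DS library and highest in DS library 3 (limma adjusted p 0.071 and 0.058). gma-miR171j-5p is of a family whose guide silences GRAS factors, but it was not shown to be that guide. The targets that the paper lists as changing oppositely to it name no GRAS factor. It stood at 80.9, 42.8 and 66.4 in CK and at 22.1, 25.3 and 8.93 in DS. Every DS library was lower (log2 difference -1.78, SE 0.49, limma adjusted p = 0.058). lus-miR396b_R+1_1ss19CT stood at 715, 680 and 678 in CK and at 887, 1266 and 1110 in DS, higher in every DS library (log2 difference 0.64, SE 0.23, limma adjusted p = 0.17).

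Of the 23 tested auxin-related names, 0 were called by limma (0 higher and 2 lower at an unadjusted p under 0.05), 19 had a fitted difference below 0 (65.2% of all tested names did), and 7 had all DS libraries below all CK libraries (18.3% of all tested names did). Their share of the values was 2.34, 2.43 and 2.09% in CK and 1.86, 1.73 and 1.73% in DS, without overlap (exact permutation p = 0.1). Its most abundant name was gma-miR167c_R+1, of the family that silences the auxin response factors ARF6 and ARF8, at 17859, 11845 and 14376 in CK and 11816, 10393 and 11294 in DS. mtr-miR160a, which silences other auxin response factors, stood at 1247, 1333 and 934 in CK and at 848, 882 and 562 in DS (limma adjusted p 0.36 and 0.29 for these). After adjustment over the 22 shares tested, no share passed (smallest adjusted p 0.31).

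miR390 triggers the tasiRNAs that silence ARF3 and ARF4. Its star strand lja-miR390a-3p stood at 146, 149 and 170.6 in CK and at 99.3, 38.8 and 67.8 in DS, lower in every DS library (log2 difference -1.26, SE 0.39, limma adjusted p = 0.090). The guide lja-miR390a-5p stood at 845, 890 and 1142 in CK and at 1050, 917 and 839 in DS, overlapping. Per 100 of the guide, the star strand stood at 17.3, 16.8 and 14.9 in CK and at 9.46, 4.23 and 8.09 in DS, without overlap (exact permutation p = 0.1).

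The miRNAs that act on the miRNA pathway itself were not called. mtr-miR168b, which silences AGO1, stood at 2972, 6310 and 4289 in CK and at 4563, 5650 and 4973 in DS, and mtr-miR162, which silences DCL1, at 2880, 1565 and 2431 in CK and at 3573, 1447 and 1098 in DS. Both overlapped. The most abundant name with no miRBase match, PC-3p-54_81480, stood at 10420, 10345 and 10234 in CK and at 11410, 9458 and 14473 in DS, also overlapping (log2 difference 0.17, SE 0.27, limma adjusted p = 0.74).

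**Figure D5:**
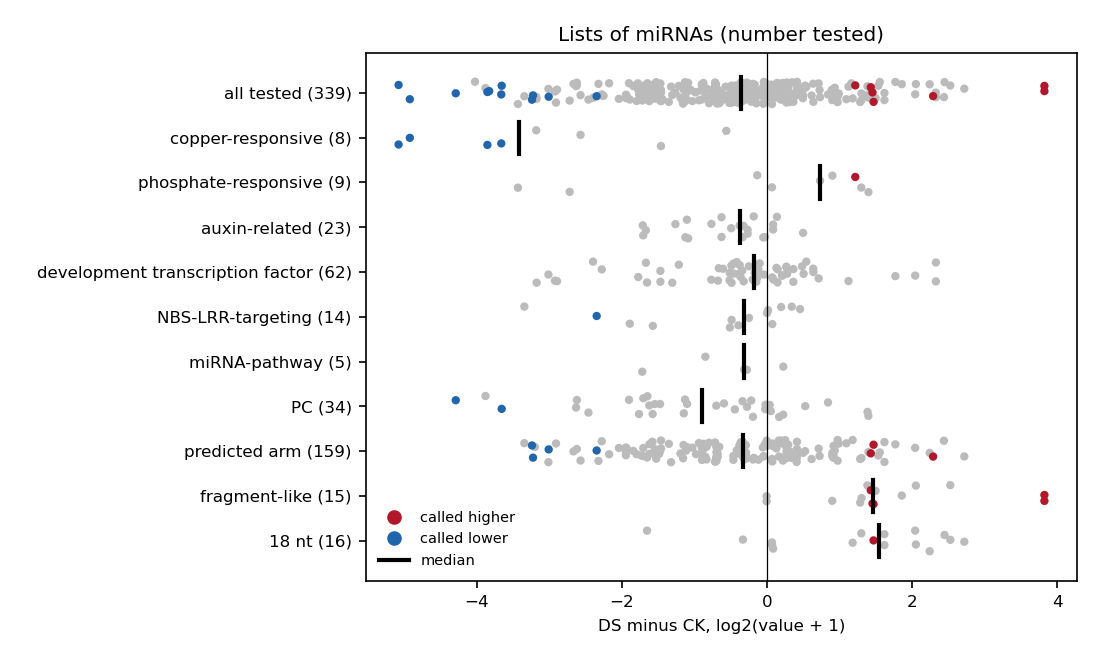
Difference of DS and CK on the log2(value + 1) scale for the tested names of each list (number tested in brackets), 1 point per name with called names in colour and the median as a bar. The median is -3.42 for the copper-responsive list, 1.45 for the fragment-like list and -0.36 for all tested names, with names listed at 0 in DS included.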

How the data were processed

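Leaf RNA (5 µg per library) went through a TruSeq small RNA preparation and Illumina sequencing. With ACGT101-miR the authors discarded adapter dimers, repeats, low-complexity reads and common RNA families, kept lengths of 18 to 25 nt and matched them to miRBase. The deposited values are a signal: normalized read counts, for which the authors applied 1 factor to each library. The choice of that factor is not given in the sources here. Of the table's 667 lines, repeated names were used once (595 names, 543 sequences). Names with at least 5 in at least 3 of 9 libraries were tested on log2(value + 1) with limma 3.58.1 (R 4.3.3, mean-variance trend, 1 fit of CK, DS and RW). Every adjusted p of a miRNA is from limma with Benjamini-Hochberg adjustment over 339 names, with a threshold of 0.05. Shares, ratios and numbers of names were compared by 2-sided exact permutation tests (scipy 1.17.1), and figures were drawn with matplotlib 3.10.9. The plan allowed for edgeR if the table held whole counts, and it does not.

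The 12 lists were made from the family number or another part of the name. The members and lists were chosen with earlier results of these data known. The named miRNAs were drawn from those that passed, the 10 with the highest mean, up to 4 per list with the highest mean, up to 5 each listed in all libraries of 1 group and none of the other, the partner arms and length forms of those that passed, and 4 that the study followed up. Not every name so drawn is described, and none of those left out passed. The names of miR156, miR397, miR399, miR8175, bra-MIR408-p5, vvi-miR2111-5p, lja-miR390a-5p and mtr-MIR2111n-p3, where outside that rule, were chosen after their values had been seen. The test was repeated with 3 further scalings, with a pseudocount of 0.5 or 5, unfiltered, with a minimum of 20, after raising low values to a common level, on names above 0 in all 6 libraries, on CK and DS alone, without each library, with a replicate block, with names of 1 sequence merged, without the fragment-like names and with unadjusted p-values. Chosen after seeing the data were the ratios within a library, the lists under each alternative, shares with each sequence counted once, and the share of short names without the fragment-like ones. The script was tested on simulated data.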

Additional observations from a re-analysis of the deposited data

How the results depend on the processing

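The 18 calls (7 higher, 11 lower) became 18 to 20 under the 3 other scalings and 18 with a pseudocount of 0.5. A pseudocount of 5 gave 12 higher and 11 lower. A minimum of 20 gave 12 and 8, as did raising low values to the common level. Names above 0 in all CK and DS libraries gave 12 and 3, CK and DS alone 3 and 8 (11 in all), and leaving out the fragment-like names 1 and 10 (11 in all). An unadjusted p under 0.05 gave 66 names, 28 higher and 38 lower. With each library left out, 0 to 23 names passed, 0 to 9 higher and 0 to 15 lower. The sources used here do not say that the replicate numbers pair the libraries. The deviations of same-numbered CK and DS libraries correlated at 0.021, -0.020 and 0.018, and those of different-numbered libraries at -0.10 to 0.091. With so few libraries this cannot exclude a pairing. With the replicate number as a block 17 names passed (mtr-MIR2610a-p3_1ss9AC did not, adjusted p 0.058). edgeR and DESeq2 were not run, because the deposited values are normalized and not whole counts. The steps were used only for approximate read numbers. None of the differences that changed sign was called, and the cause was not tested. On the log2 scale, mtr-miR166a gave 0.011 under median-of-ratios and 0.014 under upper-quartile scaling, nta-miR482a 0.052, 0.054 and, without the fragment-like names, 0.0094, and lja-miR390a-5p 0.023 and 0.025. With each library left out the log2 difference ranged from -0.20 to 0.11 for mtr-miR166a, -0.22 to 0.23 for nta-miR482a, -0.12 to 0.10 for lja-miR390a-5p, -0.067 to 0.34 for mtr-miR159a, -0.82 to 0.034 for mtr-miR162, -0.14 to 0.28 for mtr-MIR1510a-p5_1ss21AT, -0.045 to 0.50 for mtr-miR168b, -0.0074 to 0.63 for mtr-miR2118, -1.54 to 1.15 for mtr-MIR2601-p3_2ss9AC19GT and -0.33 to 0.28 for vvi-miR2111-5p. The DS minus CK difference in share (percentage points) ranged from -0.015 to 0.046 for 20 nt, -1.40 to 0.10 for the development list, -0.00010 to 0.00019 for the sulfate-responsive, -0.14 to 1.51 for the NBS-LRR-targeting, -0.063 to 0.080 for the miRNA-pathway (-0.031 with mtr-miR166a out of the total), -0.37 to 0.61 for the legume, -0.083 to 0.023 for the Medicago and -0.047 to 0.19 for the PC list, and -4.74 to 1.75 for mtr-miR166a.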

Other observations

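Some values rested on 1 library. mtr-MIR2601-p3_2ss9AC19GT stood at 295, 53.9 and 92.3 in CK and at 46.5, 32.0 and 1359 in DS, so that the DS mean came from DS library 3. aly-miR156e-3p_L+1 stood at 2.61, 684 and 3.52 in CK and was listed at 0 in all DS libraries, so that the CK mean came from CK library 2; it was not tested. mtr-miR5211_1ss20GA stood at 126, 1401 and 891 in CK and at 197, 693 and 102 in DS. In the other direction, 1 name was listed in all DS and in no CK library, cst-MIR11334-p5_2ss8TG17TC of 18 bases, at 5.52, 5.06 and 6.25 in DS (limma adjusted p = 0.13). Of the 25 tested names of miR1527 (21 sequences), a family of many low names, 24 had a fitted difference below 0 (65.2% of all tested names did). Of these 25, 12 had all DS libraries below all CK libraries (18.3% of all tested names did). By limma 0 were called (2 lower at an unadjusted p under 0.05). Only 11 of the 25 were listed in all 6 libraries. Among the 137 tested names with a 0 in at least 1 DS library, 122 had a fitted difference below 0.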
